A study of Mus musculus with 4 samples.

Results

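Collagen genes were followed through the H3K27me3 profile of mouse erythro-myeloid progenitors (EMPs), the transient blood progenitors that arise from the endothelium of the yolk sac. The list held 40 of the 21911 protein-coding genes in the GENCODE vM21 annotation, and all 40 symbols were matched. The rule took genes by name, without a threshold on a measured value, but the list was drawn up with earlier results of these data known. They fell into 11 fibrillar collagens, 6 chains of type IV collagen (the basement membrane class), 8 FACITs (fibril-associated collagens with interrupted triple helices) and 15 other collagens. A gene was counted as marked when the authors' annotated peak table named it for a peak at a distance of at most 3 kb.

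The study profiled H3K27me3 to find genes that may be targets of Ezh2 in wild-type progenitors of the yolk sac at E10.5, a stage of midgestation. EMPs were C57BL/6 cells, gated in the study as KIT+ CD41+ CD16/32+. The genotype label is shared by all 4 groups and joins Ezh2fl/fl and Tie2-Cre+/+ with the words Wild type. Following the study, they are treated here as wild type. Tie2-Cre is a driver active in endothelium and the cells that descend from it. The 4 groups had 1 library each, without replicates: H3K27me3 from 500 EMPs, H3K27me3 from 15000 EMPs, and an IgG library for each cell number that entered only as the background of the authors' peak caller. The cell numbers also differed in PCR cycles (17 and 16), read length (76 and 59 bp), instrument and p-value threshold for peaks (0.01 and 0.05). Per the reporting form of the study, the library from fewer cells was also sequenced less deeply, and a far smaller part of its reads aligned. All of these differences go with cell number and cannot be told apart. The peak files used here carried positions alone. They held no reads to correct for depth, a peak was present or absent, and no test between the libraries was possible. A gene without a peak was not shown to lack the mark. Of the genes that encode the gated proteins, Kit and Itga2b (CD41) had no peak within 3 kb in either library. Neither had Fcgr2b (CD32), and the nearest peak named for Fcgr3 (CD16) lay 4121 bp away with 500 EMPs and 4057 bp away with 15000 EMPs. Peaks do not show expression.

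Collagens are secreted proteins in which 3 chains wind into a triple helix. Fibrillar collagens build the rope-like fibrils of bone, cartilage, skin and vessel walls, type IV chains form the sheet-like network of basement membranes, and FACITs sit on the surface of fibrils. H3K27me3 is the repressive histone mark written by Polycomb repressive complex 2, whose catalytic subunit is Ezh2. In mammals it is typically found over CpG-rich promoters of developmental genes that a cell does not use. Fibroblasts, cartilage cells, endothelium and epithelia are the usual sources of collagen, and blood progenitors are not among the main producers.

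The promoters at the start of the genes differed widely in sequence. RefSeq promoters on GRCm38.p6, each running from 250 bp before to 50 bp after a start, were matched for 31 of the 40 genes. No entry was matched for Col1a1, Col2a1, Col4a3, Col5a2, Col9a3, Col12a1, Col14a1, Col22a1 and Col26a1. The dinucleotide CG was searched for, which reads the same on both strands, and it occurred at least once in 95.1% of the 16522 protein-coding promoters of this table. The 7 sequences that follow are printed 5′ to 3′ on the strand of the gene with every CG in capitals.

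The first pair belongs to Col4a1 (chr8:11312777-11313076, minus strand, 37 CpGs) and Col4a2 (chr8:11312555-11312854, plus strand, 33 CpGs). They are shown because these genes run in opposite directions from starts 21 bp apart, and 78 bp of the windows are the same DNA read on opposite strands.
Col4a1: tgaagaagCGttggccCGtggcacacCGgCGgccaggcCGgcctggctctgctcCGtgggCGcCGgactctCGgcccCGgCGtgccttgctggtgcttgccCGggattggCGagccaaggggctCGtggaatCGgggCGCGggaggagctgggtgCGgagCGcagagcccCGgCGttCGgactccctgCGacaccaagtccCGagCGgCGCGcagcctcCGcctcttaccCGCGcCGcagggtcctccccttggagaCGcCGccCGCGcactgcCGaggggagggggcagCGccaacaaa
Col4a2: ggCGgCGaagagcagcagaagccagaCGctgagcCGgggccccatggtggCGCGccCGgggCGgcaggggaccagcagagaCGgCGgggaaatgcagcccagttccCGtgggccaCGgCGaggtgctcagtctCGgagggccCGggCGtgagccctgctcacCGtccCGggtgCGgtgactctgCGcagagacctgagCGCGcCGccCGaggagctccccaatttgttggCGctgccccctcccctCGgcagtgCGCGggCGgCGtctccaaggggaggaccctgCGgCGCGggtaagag

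Col5a1 (chr2:27886175-27886474, plus strand, 34 CpGs) is shown as a CpG-rich start with no peak in the library of 500 EMPs and a broad peak in that of 15000 EMPs. Col24a1 (chr3:145292222-145292521, plus strand, 6 CpGs) is shown as the CpG-poor start with the widest cover.
Col5a1: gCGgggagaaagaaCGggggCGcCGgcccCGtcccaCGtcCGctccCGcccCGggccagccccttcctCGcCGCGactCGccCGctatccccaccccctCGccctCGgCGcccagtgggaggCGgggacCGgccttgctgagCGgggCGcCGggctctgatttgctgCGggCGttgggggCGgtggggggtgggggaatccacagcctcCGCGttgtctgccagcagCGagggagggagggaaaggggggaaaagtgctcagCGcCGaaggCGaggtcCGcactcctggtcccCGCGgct
Col24a1: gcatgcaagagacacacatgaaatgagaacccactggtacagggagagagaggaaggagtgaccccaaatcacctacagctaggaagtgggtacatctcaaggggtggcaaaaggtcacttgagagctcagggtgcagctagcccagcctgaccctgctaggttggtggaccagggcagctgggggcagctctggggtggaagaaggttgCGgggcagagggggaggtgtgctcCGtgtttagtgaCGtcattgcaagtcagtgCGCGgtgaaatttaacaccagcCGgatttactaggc

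Col4a6 (chrX:141474027-141474326, minus strand, 3 CpGs) and Col3a1 (chr1:45311288-45311587, plus strand, no CpG) are shown as CpG-poor starts without a peak. Col25a1 (chr3:130180595-130180894, plus strand, 23 CpGs) is shown as the most CpG-rich of the promoters without a peak. Its RefSeq start lay 49344 bp inside the GENCODE gene.
Col4a6: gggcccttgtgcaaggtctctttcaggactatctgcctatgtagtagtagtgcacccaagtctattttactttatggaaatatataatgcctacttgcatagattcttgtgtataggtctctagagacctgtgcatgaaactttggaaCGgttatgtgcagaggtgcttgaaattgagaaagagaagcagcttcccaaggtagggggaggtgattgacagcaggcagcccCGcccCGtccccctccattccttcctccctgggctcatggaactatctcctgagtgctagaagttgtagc
Col3a1: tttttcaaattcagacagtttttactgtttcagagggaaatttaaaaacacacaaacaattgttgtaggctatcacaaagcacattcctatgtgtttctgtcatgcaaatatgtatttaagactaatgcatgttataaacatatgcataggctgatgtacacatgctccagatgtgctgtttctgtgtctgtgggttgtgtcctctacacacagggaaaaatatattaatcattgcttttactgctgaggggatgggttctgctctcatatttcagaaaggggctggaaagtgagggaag
Col25a1: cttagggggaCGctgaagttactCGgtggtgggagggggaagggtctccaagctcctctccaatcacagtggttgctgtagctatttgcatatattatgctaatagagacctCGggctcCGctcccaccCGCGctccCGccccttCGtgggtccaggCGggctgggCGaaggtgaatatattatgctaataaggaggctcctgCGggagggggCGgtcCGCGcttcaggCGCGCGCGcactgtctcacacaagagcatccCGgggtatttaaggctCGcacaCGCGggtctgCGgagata

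With 500 EMPs, 16 of the 40 collagen genes (40%) had a peak within 3 kb, where 9.79% of all protein-coding genes did. With 15000 EMPs the count was 25 of 40 (62.5%), against 16.8% of all genes. Collagen genes are long, and long genes had peaks within 3 kb more often. Among genes of 100 kb and longer the counts were 11 of 23 collagens (47.8%) against 19.7% of all such genes with 500 EMPs, and 16 of 23 (69.6%) against 35.4% with 15000 EMPs. The 16 genes were among the 25, so the union of the libraries was also 25 of 40, against 17% of all genes. The other 15 genes were Col1a2, Col3a1, Col4a5, Col4a6, Col5a2, Col6a1, Col6a2, Col6a3, Col9a1, Col10a1, Col11a1, Col17a1, Col22a1, Col25a1 and Col28a1. In both libraries these had no covered base within 3 kb of the start. The 3 kb limit decided little: the most distant marked gene was Col18a1, whose peak lay 1148 bp from the start with 15000 EMPs, and Col4a3 at 958 bp was the most distant with 500 EMPs. The nearest gene outside the limit was Col4a6, with its peak 17556 bp from the start.

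Every class exceeded the share of all genes, and the share was highest among FACITs and lowest among the other collagens in both libraries. Of fibrillar collagens, 4 of 11 (36.4%) were marked with 500 EMPs and 7 of 11 (63.6%) with 15000 EMPs. Of type IV chains, 3 of 6 (50%) and 4 of 6 (66.7%) were marked. The FACIT counts were 5 of 8 (62.5%) and 6 of 8 (75%). The remaining collagens gave 4 of 15 (26.7%) and 8 of 15 (53.3%). Classes of 6 to 15 genes are small. A single gene is worth 16.7 percentage points among type IV chains, 12.5 among FACITs, 9.09 among fibrillar and 6.67 among other collagens, and the FACIT and type IV shares differed by no more than this step. With 15000 EMPs the order also depended on the class borders. When Col7a1, Col15a1 and Col18a1, which lie in or next to basement membranes, were placed with type IV collagen, that class had 7 of 9 genes (77.8%) with a peak with 15000 EMPs and the other collagens had 5 of 12 (41.7%). With 500 EMPs the same change gave 4 of 9 (44.4%) and 3 of 12 (25%) and left the order of the classes as it was.

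**Figure D1:**
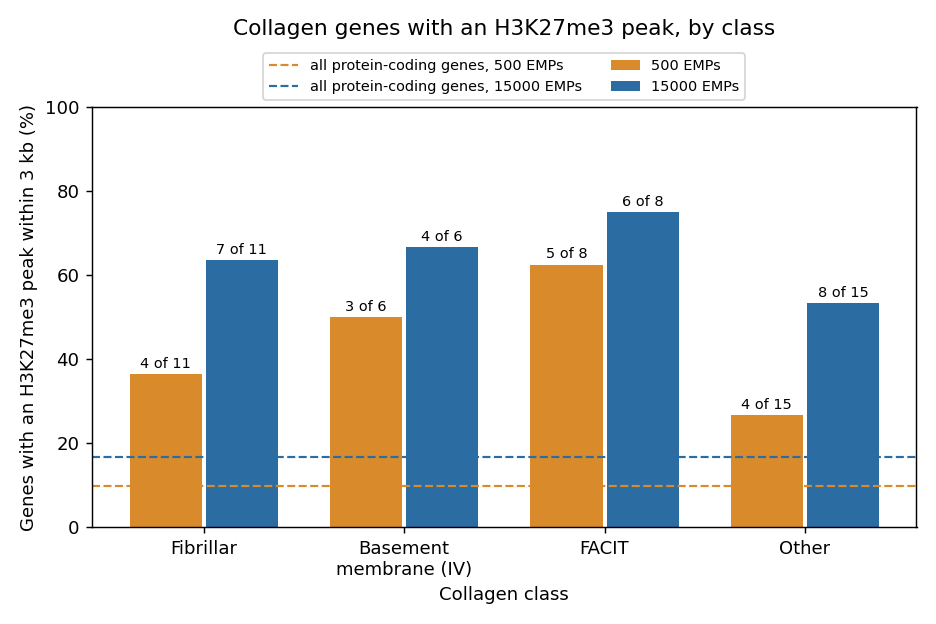
Share of collagen genes (percent, vertical axis) with an H3K27me3 peak within 3 kb, by class, for the library of 500 EMPs (orange bars) and that of 15000 EMPs (blue bars), with counts above the bars and the share of all protein-coding genes as dashed lines. Every bar stands above the line of its own colour (9.79% and 16.8%), and there are no error bars since each group had 1 library.

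The amount of DNA under peaks around a start was measured as the bases covered in a window of 6001 bp, from 3 kb before to 3 kb after the GENCODE start. With 500 EMPs, 17 genes had a covered base, the 16 marked genes and Col4a2, and the median over these was 766 bp. With 15000 EMPs, 25 genes had one and the median was 2951 bp. All protein-coding genes with a covered base gave 789 bp (2177 genes) and 2744 bp (3726 genes), so a covered collagen start held about as much peak as any covered start. Over all 40 genes, covered or not, the mean cover was 7.78% of the window with 500 EMPs and 32.9% with 15000 EMPs, beside 1.95% and 8.14% for all genes. The class means with 15000 EMPs were 40.6% for fibrillar, 43.8% for type IV, 39.3% for FACIT and 19.5% for other collagens. With 500 EMPs they were 11.5%, 11.5%, 6.82% and 4.11%, and the fibrillar mean without Col2a1 was 4.37% (35.1% with 15000 EMPs). With 15000 EMPs, 10 genes had at least 4000 bp of the window covered, and with 500 EMPs only Col2a1 did. The share of all protein-coding genes with that much cover is not given here, so this count describes the members alone.

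**Figure D2:**
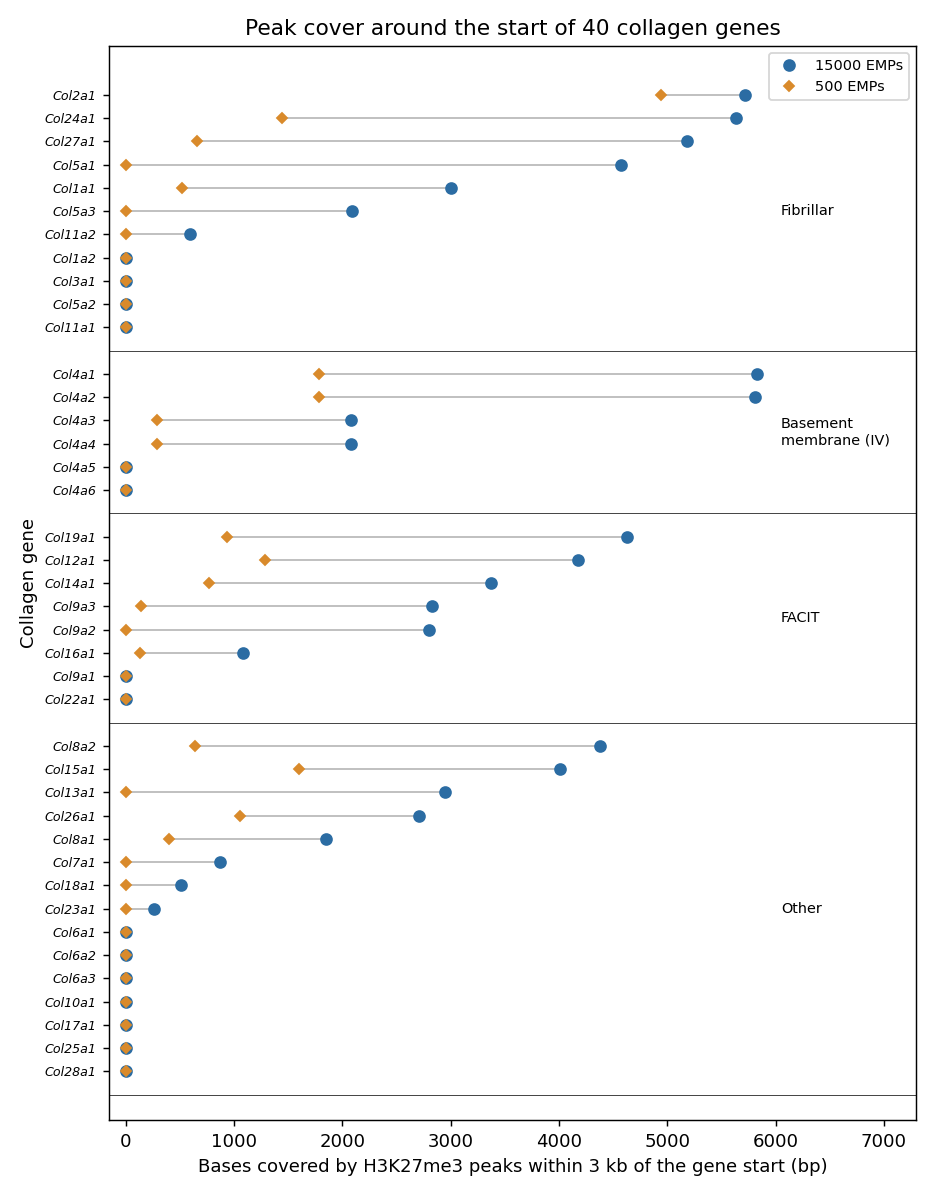
Bases covered by H3K27me3 peaks in the 6001 bp around the start (horizontal axis, bp) of each of the 40 collagen genes, by class, with 500 EMPs (orange diamonds) and 15000 EMPs (blue circles). The blue circle lies to the right of the diamond in all 25 covered genes, Col2a1 has the longest cover with 500 EMPs (4937 bp, against 5720 bp with 15000 EMPs), and 15 genes sit at 0.

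Among fibrillar collagens, the largest cover in both libraries was at Col2a1 (chromosome 15, positions 97975602 to 98004695, minus strand), the chain of cartilage type II collagen. It had 4937 bp of its window covered with 500 EMPs and 5720 bp with 15000 EMPs, and single peaks reached 2952 bp and 6998 bp. The start base itself lay inside a peak with 500 EMPs, whereas with 15000 EMPs it lay in a gap between a peak that ended 254 bp upstream and one that began 28 bp downstream. Col24a1 and Col27a1, the fibrillar chains of types XXIV and XXVII, followed. Col24a1 had 1444 bp and 5638 bp covered, and Col27a1 had 657 bp and 5178 bp.

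The chains of type I collagen, the main fibril of bone, skin and tendon, differed. Type I collagen is built of 2 chains from Col1a1 and 1 from Col1a2. Col1a1 (chromosome 11, positions 94936224 to 94953042, plus strand) had 524 bp covered with 500 EMPs and 3001 bp with 15000 EMPs, and its start lay inside a 2595-bp peak in the second. Col1a2 had 0 bp in both. Col3a1, the type III chain found with type I in vessel walls, also had 0 bp in both.

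Type V chains, which regulate fibril diameter, and type XI chains, their cartilage relatives, also differed within each type. Col5a1 went from 0 bp with 500 EMPs to 4571 bp with 15000 EMPs, all in 1 peak over the start. Col5a3 went from 0 bp to 2087 bp, in a peak that the authors' table also named for the neighbouring gene Rdh8. Their partner Col5a2 had 0 bp in both. Of the type XI chains, Col11a2 had 0 bp and 596 bp, in a peak that began 207 bp past the start, and Col11a1 had 0 bp in both. For types I, V and XI, then, at least 1 chain of a shared trimer had a peak and another had none.

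Type IV chains are encoded in pairs of genes that run head to head from a shared start region, and the members of each pair had the same state with 15000 EMPs. Col4a1 and Col4a2 encode the chains of the common basement membrane network. With 15000 EMPs, 1 peak of 6224 bp (chromosome 8, positions 11310001 to 11316224) lay over both starts and covered 5826 bp of the Col4a1 window and 5805 bp of the Col4a2 window. With 500 EMPs, peaks of 1091 and 698 bp covered 1789 bp of either window, both on the Col4a2 side. The authors' table names these for Col4a1 alone, which is why Col4a2 did not count as marked with 500 EMPs. By distance to the annotated start it did, and the count rose to 17 of 40.

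Col4a3 and Col4a4, whose chains serve the basement membranes of kidney and inner ear, start 72 bp apart. They shared a peak of 285 bp inside Col4a4 with 500 EMPs and a peak of 2076 bp over both starts with 15000 EMPs. Col4a5 and Col4a6, the X-linked pair with starts 1309 bp apart, had no covered base in either window. A peak of 137 bp, the smallest width in the library of 500 EMPs, lay 17557 bp into Col4a6 and had no counterpart with 15000 EMPs. The 3 pairs are 3 loci rather than 6 independent genes. Counting each pair once left 15 marked loci with 500 EMPs and 23 with 15000 EMPs.

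Under the class borders given first, FACITs had the largest share of marked genes, and 5 of them had peaks in both libraries. Col12a1 and Col14a1 encode the fibril-associated chains of tendon, skin and other dense tissue. Col12a1 had 1289 bp covered with 500 EMPs and 4173 bp with 15000 EMPs, and its 4 separate peaks of the first library all lay in the single peak of the second. Col14a1 had 766 bp and 3375 bp, with a peak that began 8 bp past the start in the first library and 7 bp past it in the second. Col19a1 had 937 bp and 4624 bp.

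Type IX collagen decorates the type II fibrils of cartilage and joins 1 chain from each of Col9a1, Col9a2 and Col9a3. Col9a3 had 143 bp with 500 EMPs, in a peak over the start, and 2825 bp with 15000 EMPs. Col9a2 had 0 bp and 2803 bp. Col9a1 had 0 bp in both. Its neighbour is Col19a1, whose 3′ end lies 9.21 kb from that of Col9a1 and whose covered start is at the far end of a gene of 326 kb. Col16a1 had 137 bp and 1087 bp, and its call with 500 EMPs rested on a single peak of the smallest width. Col22a1, a collagen of tissue junctions, had 0 bp in both.

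The other collagens differed by subclass. Col6a1, Col6a2 and Col6a3, the chains of the beaded filaments of type VI collagen, had 0 bp in both libraries at all 3 starts and no peak in any gene body. Of the short-chain collagens, Col8a1 had 400 bp with 500 EMPs and 1853 bp with 15000 EMPs, and Col8a2 had 637 bp and 4374 bp. Both encode type VIII collagen, a network of vessel walls and the cornea. Col10a1, the type X chain of hypertrophic cartilage, had 0 bp in both.

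The multiplexins carry antiangiogenic fragments at their ends and belong to the basement membrane zone. Col15a1 had 1602 bp and 4010 bp covered. Col18a1, the source of endostatin, had 0 bp and 515 bp, and its peak lay 1149 to 1663 bp past the start. Of the transmembrane collagens, Col13a1 had 0 bp and 2951 bp and Col23a1 had 0 bp and 264 bp, the smallest cover of any marked gene with 15000 EMPs. Col17a1, a hemidesmosome component of epithelia, and Col25a1 had 0 bp in both. Col7a1, which makes the anchoring fibrils of skin, had 0 bp and 869 bp. Col26a1 had 1060 bp and 2710 bp, and Col28a1 had 0 bp in both.

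**Figure D3:**
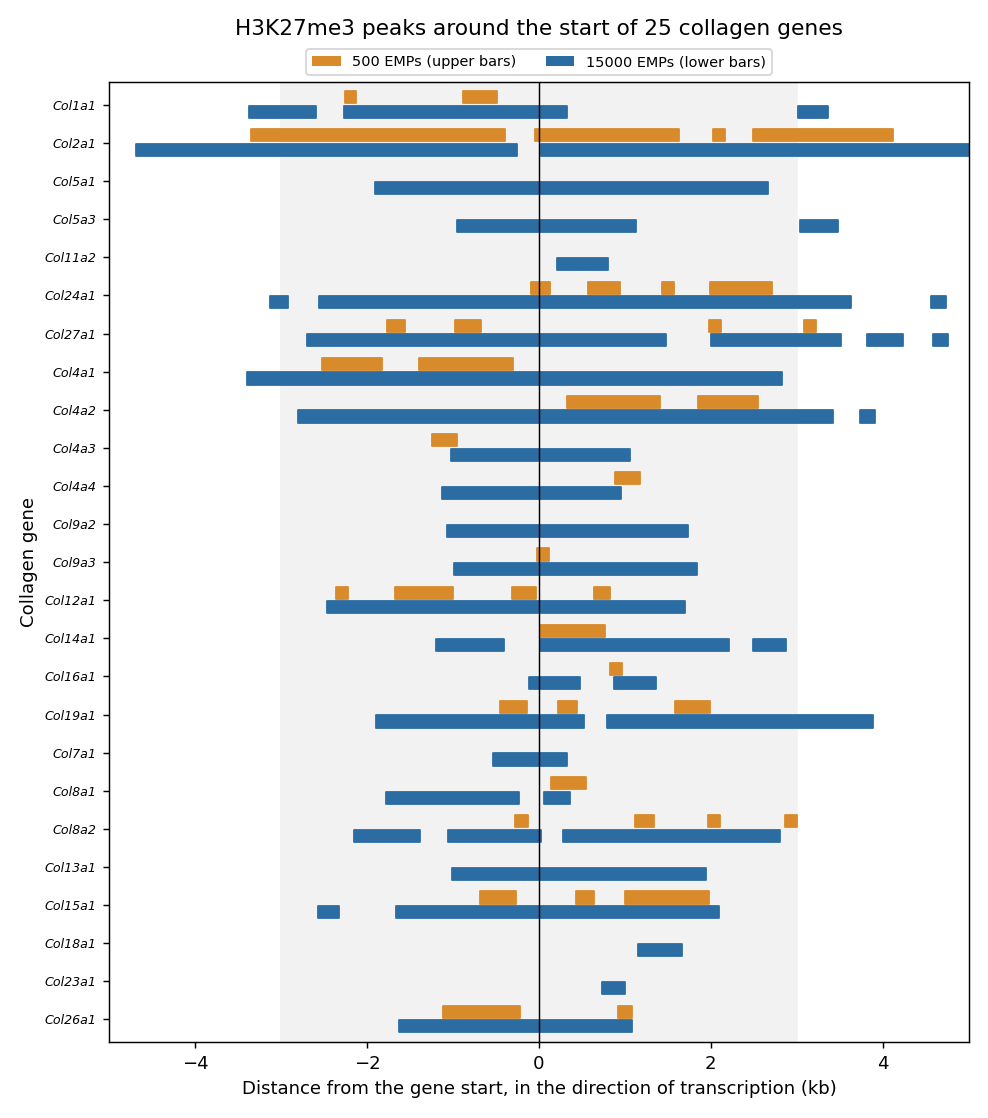
H3K27me3 peaks within 5 kb of the start of the 25 covered collagen genes, ordered by class, by distance from the start in the direction of transcription (kb), with 500 EMPs above and 15000 EMPs below for each gene and the 3 kb window shaded. Blue bars run across the start line in 19 genes and orange bars in 3 (Col2a1, Col24a1 and Col9a3).

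The start base lay inside a peak in 3 of 40 collagen genes (7.5%) with 500 EMPs, where 1.41% of all genes had this, and in 19 of 40 (47.5%) with 15000 EMPs, where 8.64% did. The 3 were Col2a1, Col9a3 and Col24a1. With 500 EMPs the windows held 36 peaks with a median width of 282 bp, and 8 of these were of the smallest width of 137 bp. With 15000 EMPs they held 35 peaks with a median width of 2087 bp. Cover lay on both sides of the start. Summed over the windows, with bases of shared windows counted for each gene, 53% of covered bases were downstream with 500 EMPs and 52.7% with 15000 EMPs, beside 54.7% and 58% for all protein-coding genes.

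Nearly all cover of the smaller library lay within that of the larger, at collagen genes as elsewhere. In the windows, 15934 of the 16607 bp covered with 500 EMPs (95.9%), with bases shared by head-to-head genes counted once, were also covered with 15000 EMPs. The value over the windows of all protein-coding genes was 95.4%. All 17 genes covered in both libraries had more cover with 15000 EMPs, with a median ratio of 4.63 (range 1.16 to 19.8), near the 4.26 of the 2155 protein-coding genes covered in both. The lowest ratio was that of Col2a1 and the highest that of Col9a3. The 8 genes covered with 15000 EMPs alone had a median of 1478 bp (range 264 to 4571 bp), beside 4010 bp (range 1087 to 5826 bp) for the 17. Col5a1 and Col13a1 led the 8.

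Peak by peak, 51 of the 56 peaks at collagen genes with 500 EMPs (91.1%, Wilson 95% interval 80.7 to 96.1%, for counting error only and with neighbouring peaks taken as independent) overlapped a peak with 15000 EMPs by at least 1 bp. Over all peaks at protein-coding genes, in the body or the start window, the share was 92.9%. The 5 others were in Col4a2, Col4a6, Col8a2 and Col24a1, and none was wider than 362 bp. In the other direction 28 of 75 peaks (37.3%, 27.3 to 48.6%) overlapped, beside 35.6% at all protein-coding genes. Both shares at collagen genes were thus near those of the libraries at large. The body of Col24a1 alone held 14 of the 56 peaks with 500 EMPs, of which 12 overlapped. It held 25 of the 75 with 15000 EMPs, of which 7 overlapped. Of the 75 peaks at collagen genes, those that overlapped were wide, with a median of 2836 bp, and 15 of them held at least 2 peaks of the smaller library. Those that did not had a median of 449 bp, and the widest of them was the peak at Col5a1.

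Peaks in the gene body were found in 15 of 40 genes (37.5%) with 500 EMPs, against 10.4% of all genes, and in 25 of 40 (62.5%) with 15000 EMPs, against 18.4%. With 15000 EMPs these were the same 25 genes that had a peak within 3 kb, so the body count is not a separate result. With 500 EMPs, only Col4a2 and Col4a6 had a body peak without counting as marked. The collagen genes had a median length of 117 kb against 17.4 kb for all protein-coding genes, so shares are also given by length. Whether gene length accounts for part of the difference was not tested. Among genes of 100 kb and longer, 11 of 23 collagens (47.8%) had a body peak with 500 EMPs, where 24.7% of all such genes did, and 16 of 23 (69.6%) with 15000 EMPs, where 42.3% did. From 20 to 100 kb the counts were 4 of 13 (30.8%, against 10.2%) and 7 of 13 (53.8%, against 18.3%). Under 20 kb they were 0 of 4 (against 7.61%) and 2 of 4 (50%, against 13.4%). The marked collagens had a median length of 120 kb and the others 78 kb, with ranges that overlapped (15.9 to 326 kb and 7.11 to 468 kb).

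Most genes had their body peaks close to the start. Of 44 body peaks with 500 EMPs, 20 lay wholly over 3 kb from the start, in 7 genes. Of 68 with 15000 EMPs, 40 did, in 11 genes. Col24a1 alone held 14 of the 44 body peaks and 25 of the 68. The matching counts over all protein-coding genes are not given here, so these numbers do not set collagens apart. Exons held 25.7% of the covered gene-body bases with 500 EMPs and 15.3% with 15000 EMPs, beside 6.34% of the length of the 40 genes. The exon share of covered bases over all protein-coding genes is not given here, so no trait particular to collagens can be read from this. Col2a1 alone gave 3254 of the 4499 exonic bases with 500 EMPs and 4748 of 13724 with 15000 EMPs, and without it the shares were 8.96% and 10.9%.

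Col24a1 held more peaks than any other collagen gene. Its body of 260 kb (chromosome 3, positions 145292472 to 145552011, plus strand) had 14 peaks over 5223 bp (2.01% of the gene) with 500 EMPs and 25 peaks over 32283 bp (12.4%) with 15000 EMPs. All 14 peaks with 500 EMPs ended within 54.3 kb of the start. With 15000 EMPs, 16 peaks over 27322 bp lay within 56.4 kb of the start and included the widest, of 6193 bp, over the start itself. In this stretch 12 of the 14 peaks with 500 EMPs overlapped a peak with 15000 EMPs, and 11 lay wholly inside one. A second group of 9 peaks over 4961 bp lay 237 to 258 kb from the start, near the end of the gene, with 15000 EMPs alone. The authors' table names these for Znhit6, whose start lies 24.2 kb beyond Col24a1.

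Separate domains inside the gene were also found in Col16a1 and Col8a2. Col16a1 had a 3297-bp peak with 15000 EMPs, 27897 to 31193 bp from its start, with annotated starts of shorter transcripts at 29203 and 31170 bp inside it. With 500 EMPs, peaks of 280 and 394 bp lay in the same stretch. This domain was wider than the 593-bp peak over the gene start, and the table names it for the neighbour Pef1. Col8a2 had peaks of 2240 and 3232 bp with 15000 EMPs, between 9002 and 15905 bp from the start, and the second contained an annotated transcript start at 13737 bp. All 4 peaks that 500 EMPs gave there (137 to 478 bp) lay inside these 2 peaks.

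**Figure D4:**
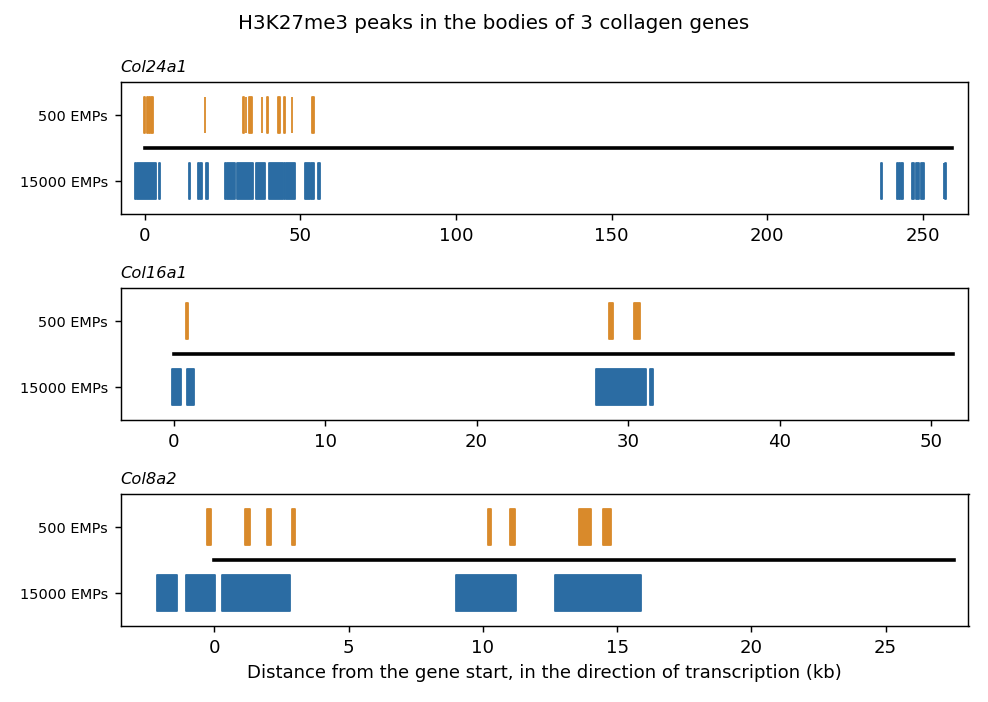
H3K27me3 peaks along Col24a1, Col16a1 and Col8a2 by distance from the gene start (kb; each panel has its own scale), with 500 EMPs above the gene line and 15000 EMPs below it. Col24a1 shows a dense 5′ group in both libraries and a 3′ group at 237 to 258 kb with 15000 EMPs alone, and Col16a1 and Col8a2 each show an inner domain in both libraries.

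Of the 7 promoters printed above, Col24a1 had the lowest CpG number of the genes with a peak and Col25a1 the highest of those without. Promoters were matched for 18 of the 25 genes with a peak and 13 of the 15 without. The genes left out of the CpG values were thus mostly marked ones, Col2a1 among them, which limits the medians and shares. The 18 promoters of genes with a peak had 6 to 37 CpGs with a median of 17, and a median observed-over-expected CpG ratio (the CpG number over that expected from the C and G content) of 0.63. The 13 promoters of genes without a peak had 0 to 23 CpGs with a median of 5, and a median ratio of 0.25. The ranges overlapped. Over all protein-coding promoters of the table the medians were 19 CpGs for genes with a peak and 13 for genes without, and the median ratios were 0.67 and 0.58.

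A split at 10 CpGs, chosen after the values had been seen, gave 16 of 19 collagen genes (84.2%) with a peak with 15000 EMPs at 10 or more CpGs, where 21% of all such genes had one. With 500 EMPs it was 7 of 19 (36.8%), against 12.5%. Below 10 CpGs it was 2 of 12 (16.7%) in either library, against 9.38% with 15000 EMPs and 4.94% with 500 EMPs. These 2 were Col24a1 with 6 CpGs and Col15a1 with 8, and both were covered over more than 4000 bp with 15000 EMPs. The CpG-rich exceptions without a peak were Col1a2 with 13, Col4a5 with 11 and Col25a1 with 23. The RefSeq start of Col1a2 lay 804 bp and that of Col25a1 49344 bp from the GENCODE start, and neither place held a peak. The RefSeq and GENCODE starts of Col27a1, a marked gene with 18 CpGs, lay 1408 bp apart. Col3a1, Col9a1 and Col28a1 had no CpG in the window and no peak. The 9 genes with a peak with 15000 EMPs alone had 10 to 34 CpGs (median 20), and the 9 of the 16 genes with a peak in both that had a promoter entry had 6 to 37 (median 16), with ranges that overlapped.

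**Figure D5:**
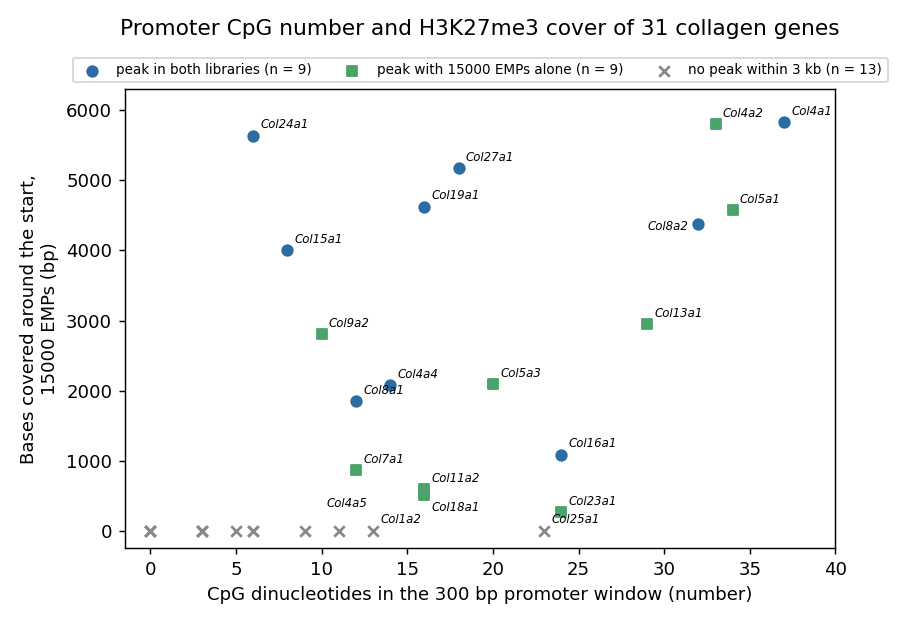
Number of CpG dinucleotides in the 300-bp RefSeq promoter (horizontal axis) against the bases covered by peaks around the start with 15000 EMPs (vertical axis, bp) for the 31 collagen genes with a promoter entry. Genes without a peak (grey crosses, at 0 bp) lie mostly below 10 CpGs, apart from Col1a2, Col4a5 and Col25a1, and Col24a1 and Col15a1 are the covered genes with the fewest CpGs.

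Genes that act on collagen, in lists written from general knowledge of the pathway, were counted in the same way, beside the 9.79% and 16.8% of all genes. Of 16 enzymes and chaperones that modify and fold collagen chains in the endoplasmic reticulum, 2 (12.5%) had a peak within 3 kb with 500 EMPs and 5 (31.2%) with 15000 EMPs. They were P4ha2 and P4ha3, prolyl 4-hydroxylase subunits, joined with 15000 EMPs by the prolyl 3-hydroxylase genes P3h2 and P3h3 and the glycosyltransferase gene Colgalt2. P4ha3 had 1799 bp and 5242 bp of its window covered, the most of this list. The other 11 genes had 0 bp in both libraries.

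Later steps take place outside the cell. Of 11 genes for propeptide removal and crosslinking, 5 (45.5%) had a peak with 500 EMPs and 8 (72.7%) with 15000 EMPs. The procollagen protease genes Adamts2 and Adamts14, the protease enhancer gene Pcolce2 and the lysyl oxidase genes Lox and Loxl1 had one in both. Bmp1, Loxl2 and Loxl4 had one with 15000 EMPs alone. Adamts2 led with 1442 bp and 5265 bp covered, and Lox had 265 bp and 3824 bp.

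Of 9 collagen receptor genes, 2 (22.2%) had a peak with 500 EMPs and 3 (33.3%) with 15000 EMPs. These were Itga11, an integrin gene for fibrillar collagen, Ddr1, a receptor tyrosine kinase gene, and, with 15000 EMPs alone, Itga1. The other 6 (Itga2, Itga10, Itgb1, Ddr2, Gp6 and Lair1) had 0 bp in both. Of 14 other basement membrane genes, 3 (21.4%) and 7 (50%) had a peak: the laminin genes Lama1, Lamb1 and Lamc3 in both, and Lama5, Nid1, Nid2 and Agrn with 15000 EMPs alone. Of 4 collagen genes outside the list of 40 (Col6a4, Col6a5, Col6a6 and Col20a1), 0 had a peak with 500 EMPs and 1, Col6a5, had one with 15000 EMPs, over 394 bp.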

How the data were processed

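Peak lists of H3K27me3 CUT&RUN, which sequences the fragments that an antibody-bound nuclease releases, were analysed from 1 library of 500 EMPs and 1 of 15000 EMPs. Groups were taken from the sample labels. The authors aligned reads to mm10 (GRCm38) with Bowtie2 2.2.1, called broad peaks with MACS2 2.1.2 against the IgG library of each cell number and annotated them with ChIPpeakAnno. In their printed MACS2 commands the 2 cell numbers appear swapped, and the lists were taken as labelled. The deposited values used here were peak positions, in bp, and a distance in bp to 1 or more named genes. The peak files used here held no score or read count, so depth, which the study states was lower for the smaller library, could not be corrected for and no precision can be given beyond counts of peaks. Broad calling joins nearby enriched stretches, which sets peak number and width.

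Starts and ends in the annotated tables were shifted by 1 bp to fit the peak lists. Genes and starts (the 5′ end of the gene) came from GENCODE vM21 on the same assembly, and positions are 1-based. Peaks were intersected with genes and windows at a minimum overlap of 1 bp in Python 3.11.15, and the counting was tested on simulated data. For a peak inside a gene, the distance column gives that to the nearer gene end. The background was 21911 protein-coding genes, treated alike. The 40 members, the classes and the pathway lists were chosen with earlier results of these data known. All 40 members are accounted for, and every gene of the pathway lists with a peak within 3 kb is named. The list of other basement membrane genes is not complete, and a gene left out of it is not reported here. No test was made, since each group had 1 library. Alternatives covered the distance limit (1 and 5 kb), the annotated start, peak category, shortest peaks, pairs, class borders, window size and overlap rule.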

Additional observations from a re-analysis of the deposited data

How the results depend on the processing

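Of 48 alternative values for 19 results, 41 stayed within the limit set for them (1.5 times for a count). The limits for shares are not stated here, so the 41 does not measure how small those changes were. A change from 91.1% to 96.4% in peak overlap was outside its limit. One from 7.78% to 10.7% in mean cover with 500 EMPs was inside its own. Placing Col7a1, Col15a1 and Col18a1 with type IV collagen moved the count with 15000 EMPs from 4 to 7 for the basement membrane class and from 8 to 5 for the other collagens. The share of peaks overlapped by the other library fell from 91.1% to 7.14% with 500 EMPs and from 37.3% to 5.33% with 15000 EMPs when at least 50% of both peaks had to overlap, since the widths differ, and it was 96.4% and 49.3% when peaks within 1 kb counted. Mean cover with 15000 EMPs was 49.4% in a window of 1 kb on each side, against 32.9%. Among single genes, Col4a2 was gained with 500 EMPs by distance to the annotated start, Col16a1 was lost with 500 EMPs without the shortest peaks, and Col18a1 was lost with 15000 EMPs at a limit of 1 kb. No paired analysis was possible because each group had 1 library. The different depths, which the peak positions do not allow to be corrected for, and the different thresholds limit every comparison between the cell numbers.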

Other observations

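Some peaks were named for a collagen gene but lay more than 3 kb from it and in the body of no collagen gene, and so entered none of the counts of the report. There were 5 such peaks with 500 EMPs, at 3 genes, and 12 with 15000 EMPs, at 5 genes. The most extended group lay upstream of Col1a1 on chromosome 11, with no protein-coding gene there. With 15000 EMPs it held a peak of 5207 bp (positions 94879725 to 94884931), whose near end was 51292 bp from Col1a1 in the authors' distance column, and smaller peaks of 875 and 290 bp farther out. With 500 EMPs it held peaks of 857, 942 and 697 bp, all inside the 5207-bp peak. The wide peak was larger than the 2595-bp peak over the start of Col1a1 itself. Col16a1 had an upstream peak of 1826 bp with 15000 EMPs and one of 137 bp with 500 EMPs, 12143 and 11603 bp from the gene, which did not overlap. At Col2a1, peaks of 215 and 318 bp lay 6023 and 21874 bp upstream with 15000 EMPs alone. Whether these peaks have any relation to the collagen gene named for them was not tested.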
